A study of Rattus norvegicus with 16 samples.

Results

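Single-place piRNAs on repeat copies are the entries of the rat piRNA list that occupy one place in the rn5 genome and overlap an annotated copy of an interspersed repeat. They were taken as the entries with a single listed place on a numbered chromosome that share at least 1 base with a repeat interval, whatever the strand of the repeat. The rule found 9420 of the 58165 listed piRNAs, and 41292 further single-place entries on numbered chromosomes lay outside repeats. The members fell on 1504 repeat copies that carry 327 of the 997 repeat names. They were 17 to 31 bases long with a median of 28, and 89.9% had 24 to 30 bases.

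Small RNA was sequenced from eGFP+ germ cells (GCs) of 8 male Sprague-Dawley rats, isolated by flow sorting of dissociated testes. All of the rats carried an eGFP transgene that marks GCs. The sort does not separate the stages of the germ line, so each library is a mixture of stages. Each rat gave 1 small RNA library: 4 rats were fed a high fat diet (HFD, 40% of calories from fat in the labels, while the study's text gives another value) and 4 a control diet (CD, 10%), from weaning to 19 weeks of age. The comparison of the diets asks whether paternal diet alters the small RNA of GCs. The gene identifiers of the mRNA tables could not be paired with symbols, so the GC identity of the sorted cells was not checked against marker genes. Summed over all listed piRNAs, the deposited read counts came to between 891575 and 1240080 per library, and counts on members to between 113884 and 156454.

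PIWI-interacting RNAs (piRNAs) are small RNAs of the germ line that guide PIWI proteins to complementary transcripts. Their precursors are long single-stranded transcripts of genomic clusters, which in rodents are of 2 broad kinds: those of the fetal testis, rich in transposon sequence, and those made in meiotic cells, mostly from intergenic loci. A piRNA whose sequence is antisense to a transposon can guide silencing of that element, while a sense piRNA shares the strand of the element's own transcript. A copy of a repeat inside a cluster is carried along in the precursor in whatever orientation it was inserted.

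The orientation of the counted reads matters for the values below. Every entry of the list is annotated on the plus strand, and the authors counted reads on the opposite strand, so each count is of reads aligned to the minus strand. On a plus strand repeat copy the counted RNA is therefore antisense to the element, and on a minus strand copy it is sense. Reads on the plus strand were not counted at these places. A counted read overlaps its entry and need not have the same ends or length. Reads had at least 25 bases, yet the member of 19 bases at chr7:31115125-31115143 had a mean count of 14.4. Counts of a piRNA are therefore counts of reads that touch its place. No genome sequence of the rn5 build was used here, so the piRNA and repeat sequences are not printed.

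Of the 9420 members, 1693 (17.97%) had at least 1 read in a library and 1247 reached a mean count of 1 over the 8 libraries. The counted entries held 12.6% of all piRNA counts. Entries outside repeats had a similar proportion with reads (15.98% of 41292) and held 61.1% of all piRNA counts. Counts were concentrated in few members: 270 whose mean count reached 100 held 84.0% of the member counts, and the 12 most abundant held 22.2%. Reads were found in all 8 libraries for 1062 members and in a single library for 208. The median mean count of members with any read was 7.62.

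Whether a member had reads went with its overlap with other listed piRNAs. Of the 7856 members that share bases with another listed place, 635 (8.08%) had reads, against 1058 of the 1564 (67.6%) that share none. The authors' counting left a read unassigned where it touched more than 1 entry, so reads of overlapping entries are lost from the table wherever both are covered. The members that share no base held a summed mean count of 107218 of the 131872 for all members. Among other single-place entries of this class, which share no base, 73.2% of the 4796 outside repeats had reads, and 78.4% of the 3828 outside both repeats and gene spans. A member without a count is thus not shown to lack reads. The limit that a count of 0 allows holds only for countable reads, those on the minus strand that touch 1 entry. It is 3 counts, which amounted to 2.42 to 3.36 CPM (counts per 1000000 piRNA counts) in these libraries. This limit and all binomial intervals cover counting error only.

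The members with reads were grouped in a small number of genomic loci. Joined wherever neighbours lay within 20 kb, the 9420 members formed 423 loci, and 187 of these had a member with reads. The 20 leading loci held 81.4% of the member counts. All but 1 of the 20 spanned 27376 to 97952 bases, and the other, on chr12, 4611 bases. They carried a mixture of repeats: the locus with the most counts, chr1:136159889-136256709, held 477 members on copies of 46 different repeat names. Its summed mean count was 15804.5, or 11.98% of all member counts. Without its most abundant piRNA the locus had 8213.6.

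The next loci were chr7:100128579-100178199, with a summed mean count of 11437.6, chr12:50835473-50868320 with 8527.4, chr4:231201232-231266526 with 7673.5, and chr20:15879345-15910991 with 7611.3. Most members of these loci that share no base with another entry were counted. The numbers were 30 of 36 on chr7, 28 of 28 on chr12, 49 of 49 on chr4 and 22 of 22 on chr20. At the leading chr1 locus 50 of 86 were counted. Of the 48 loci with at least 5 such members, 22 had reads on all of them, and 7 had reads on fewer than 50% of them. The orientation of the copies that carry the reads differed from locus to locus. Plus strand copies held 84.9% of the counts of the leading chr1 locus, 42.4% at the chr7 locus, 15.1% at chr7:98451193-98478568 and 0.405% at chr6:103635991-103653204.

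The counts dropped from one side to the other along several loci. In the leading chr1 locus, the 31 members sharing no base that lie in its first 40 kb all had reads, with a summed mean count of 15276.4. After a stretch of 10055 bases without such members, the following 55 members summed to 18.1, and 19 of them had any read. At the chr7 locus 28 members summed to 9844.1, and the 8 that start 776 bases farther on summed to 1.75. A single division placed where the mean log2 count of both sides differed most, with at least 4 members on each side, left 1 side under 20 counts and the other over 1000 in 7 of the 12 leading loci. This division was chosen from the values and is a description. Reads on the plus strand were not counted, so these borders are borders of minus strand reads.

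**Figure D1:**
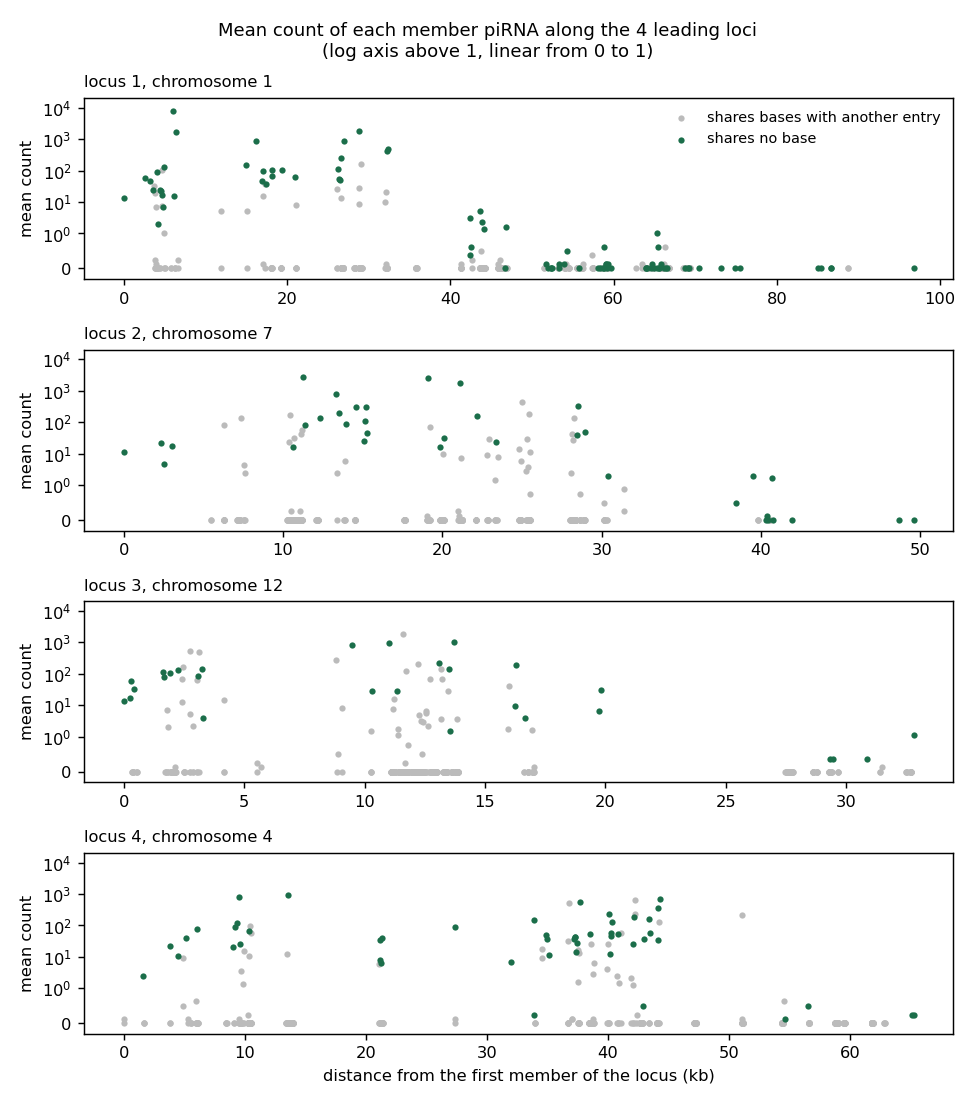
Mean count over 8 libraries (vertical axis, logarithmic above 1 and linear from 0 to 1) of each member against its distance in kb from the first member of the locus, for the 4 loci with the most counts. Green points share no base with another listed piRNA and grey points do. The green points of the chr1 locus lie between 2 and 7590.9 in the first 40 kb and at or under 5.12 beyond 40 kb.

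Other loci listed many members and had almost no counted reads. Only reads on the minus strand were counted, so a low count does not show a lack of plus strand reads. Of the 27 loci with at least 100 members, 8 had a summed mean count under 100, and these held 1696 members and a summed mean count of 124.8. One of them, chr1:135437333-135506904, lies on the chromosome of the leading locus with 330 members, and its summed mean count was 45.4. Another, chr3:88136360-88192841, had 398 members and a summed mean count of 13.1. Among members that share no base, 18 of 36 had reads at the first and 5 of 12 at the second.

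By family, long terminal repeats (LTRs) of endogenous retroviruses outside the MaLR group carried the most reads. The LTR group held 37.1% of the member counts on 27.1% of the listed members, while its copies made up 10.8% of the bases annotated to the 327 repeat names. LINE-1, a retrotransposon group of which some copies are still active in rodents, held a smaller share of the counts than of the bases. It had 49.6% of the bases, 14.9% of the listed members and 15.99% of the counts. The bases are those of all annotated copies, while members have by rule a single listed place. Entries listed at several places are outside the shares of every family. MaLR elements, older LTR relatives that no longer code for proteins, held 14.97% of counts on 20.4% of the listed members. The short elements B1 and ID held 11.8% of counts on 8.85% of the listed members. DNA transposons held 7.46% of counts on 2.33% of the bases and 5.33% of the listed members. Most of their summed mean count of 9840.8 came from single piRNAs: rat_piRNA_181004 (2820.9), rat_piRNA_168249 (2478.3) and rat_piRNA_164081 (1814.5). The B2, B3 and B4 SINEs held 4.81% of counts on 12.5% of the bases and 7.07% of the listed members. Other LINEs held 4.10% of counts on 1.396% of the bases and 7.12% of the listed members. For MIR and other old SINEs the values were 3.76%, 1.72% and 9.27%. Other LINEs and old SINEs thus held more than their share of the bases and less than their share of the listed members. Of the members that share no base, the share with reads ranged from 59.0% for B1 and ID to 74.5% for MIR and other old SINEs.

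**Figure D2:**
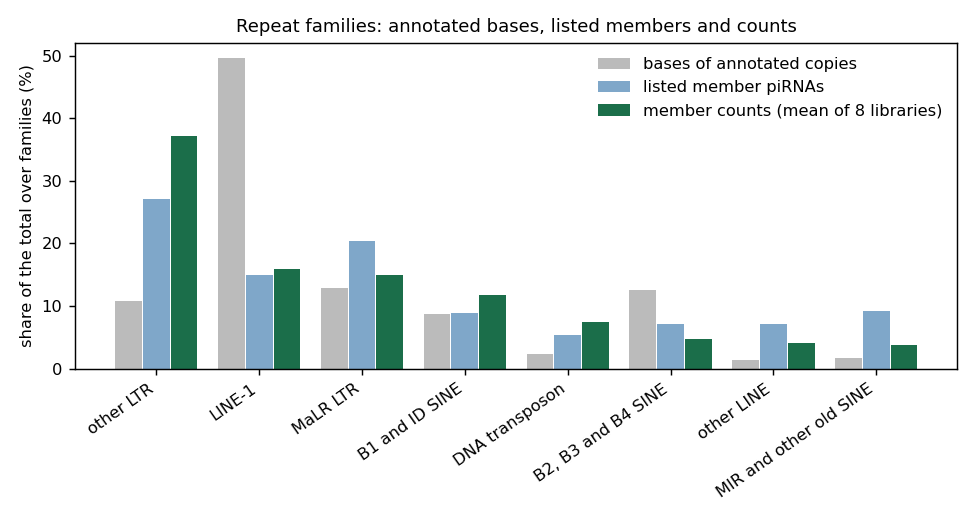
Share (percent, axis from 0) of the annotated repeat bases, of the listed members and of the member counts (mean of 8 libraries) held by each of 8 repeat families. LTR elements outside the MaLR group hold 10.8% of bases and 37.1% of counts, and LINE-1 holds 49.6% of bases and 15.99% of counts.

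Plus strand copies, on which the counted RNA is antisense to the element, carried 5485 of the listed members and a summed mean count of 83171. Minus strand copies carried 3935 members and 48700. The share of members with reads was 17.96% on plus and 17.99% on minus strand copies, and 70.0% against 65.0% among members that share no base. In the libraries, minus strand copies held 36.8% ± 0.268 (SD, n = 4) of the member counts on the HFD and 37.1% ± 1.49 (SD, n = 4) on the CD. The 7 libraries other than CD replicate 4 lay between 36.0% and 37.0%, and CD replicate 4 was at 39.3%. By family the share of counts on plus strand copies ranged from 25.2% in DNA transposons to 79.9% in the B2, B3 and B4 SINEs, and was 58.6% in LINE-1. The DNA transposon value rests largely on rat_piRNA_181004 and rat_piRNA_168249, both on minus strand copies.

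Among repeat names, RMER3, a rodent LTR, carried the most counts, with a summed mean of 7606.9 on 5 members. Of these counts 99.8% came from 1 piRNA. MurERV4_19-int, the internal part of an endogenous retrovirus, followed with 4757.1. All of its 254 members lay on plus strand copies, on 3 copies in all, and 28 of them were counted. RMER15, another rodent LTR, had 4749.6 on 122 members in 22 copies, 74.7% of it on plus strand copies.

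The summed counts of the LINE-1 names L1M2 and Lx9 lay mostly on copies of opposite strands. L1M2, with a summed mean count of 4057, had 13.3% of its counts on plus strand copies. However, 151 of its 189 members lay there, as did 16 of its 26 members with reads. A single piRNA on a minus strand copy, rat_piRNA_157311, held 43.9% of the L1M2 counts. Lx9, with 3038.3, had 99.1% of its counts on plus strand copies. B1_Rn, a rodent SINE derived from 7SL RNA, had 3573.5 counts, of which 98.9% were on plus strand copies, while 25 of its 54 listed members lay on them. The DNA transposons Charlie1 (3069.8) and MER20 (2807.6) had 0% and 9.29% of their counts on plus strand copies.

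The last of the 12 were L2b, of the old LINE-2 group, with 2687.5 counts; the MaLR element ORR1F with 2444.8; the SINE ID_B1 with 2373.9; and the SINE B4A with 2355. Most of these sums rested on a few piRNAs: the most abundant member held from 27.9% of the counts on ORR1F to 99.8% on RMER3.

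The spread between libraries differed from name to name. Counts on B1_Rn were 3404, 3533, 3350 and 3373 CPM in the 4 HFD libraries, by replicate number, and 3534, 3339, 3416 and 3478 CPM in the 4 CD libraries. On MurERV4_19-int the HFD libraries had 4631, 4882, 4565 and 4532 CPM and the CD libraries 4974, 4347, 4248 and 4358. Charlie1 was at 2405, 2702, 2965 and 3419 CPM on the HFD and 2330, 2965, 3214 and 3341 on the CD. The widest spread of the 12 was that of RMER3, at 4677, 7643, 8209 and 8676 CPM on the HFD and 6500, 9021, 8093 and 4587 on the CD. The low libraries of RMER3 were HFD replicate 1 and CD replicate 4, 1 in each diet, and the ranges of the diets overlapped on all 12 names.

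**Figure D3:**
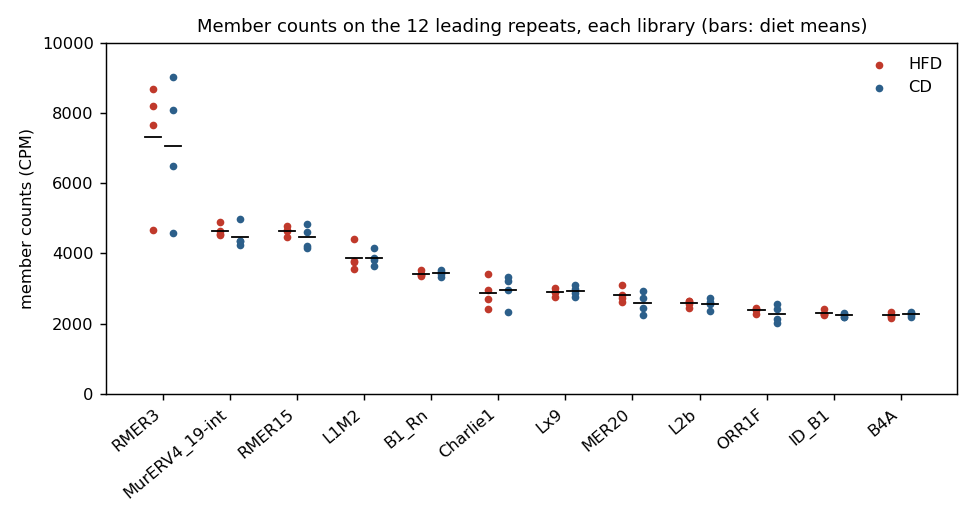
CPM summed over the members on each of the 12 repeat names with most counts (linear axis from 0), with 1 point per library in red for HFD and blue for CD and a black bar at each diet's mean. RMER3 spreads from 4587 to 9021 CPM, and the points of the diets overlap on every name.

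The reads that the authors counted over whole repeat classes, on either strand and over all copies, put the single-place members in proportion. Members on RMER3 had 43.7% as many counts as the whole RMER3 class, those on RMER15 19.6%, and those on Charlie1 18.8%. On ORR1F, the class with the largest count of the 12 (190661 on average), the members had 1.28% as many. The class tables and the piRNA table were counted by different strand rules, so these are ratios of 2 counts and not shares of one pool.

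The 12 piRNAs with the highest mean counts came from 4 chromosomes. The first was rat_piRNA_178108 at chr1:136165874-136165902, 29 bases inside a plus strand RMER3 copy of 418 bases. In order of replicate number the HFD libraries held 4400, 6846, 10167 and 10099 reads counted on it and the CD libraries 6258, 9853, 8640 and 4464, a mean of 7590.9. It lies within the spans, outside the exons, of the genes ENSRNOG00000047168 on the minus strand and ENSRNOG00000051304 on the plus strand. In the mRNA libraries these genes had 6 to 28 and 19 to 67 counts.

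Both rat_piRNA_181004 and rat_piRNA_168249 lie at the chr7 locus on minus strand DNA transposon copies. The first, at chr7:100139852-100139879 on Charlie1, had 2056, 2206, 3355 and 3673 counts on the HFD and 2053, 2975, 3204 and 3045 on the CD. The second, at chr7:100147686-100147712 on MER20, had 2600, 2226, 3013 and 2688 on the HFD and 2040, 2116, 2595 and 2548 on the CD. Counts of both overlapped between the diets. Another piRNA of this locus, rat_piRNA_165819 at chr7:100149687-100149711 on a plus strand Lx9 copy, had a mean count of 1719.6.

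On chr20, rat_piRNA_151845 (chr20:15899032-15899059, plus strand RMER15) had 1679, 1755, 2358 and 2444 counts on the HFD and 1733, 2027, 2114 and 1789 on the CD. Scaled to library size its coefficient of variation (CV) over the 8 libraries was 4.72%. Close by, rat_piRNA_166324 (chr20:15896548-15896575, plus strand B1_Rn) had a mean count of 1758.6 and a CV of 4.33%. At the other chr20 locus, rat_piRNA_81278 (chr20:8847224-8847250) on a minus strand ORR1C1 copy had a mean count of 1933.

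The other 5 came from chr12 and chr1. On chr12 were rat_piRNA_161770 (chr12:24791737-24791762, MLT1G3) with a mean count of 1881.1 and rat_piRNA_72436 (chr12:50847073-50847102, MurERV4_19-int) with 1861.9. Both share bases with another listed piRNA and both lie on plus strand copies. On chr1 were rat_piRNA_164081 (chr1:136188720-136188744, Tigger7, a DNA transposon) with 1814.5, rat_piRNA_157311 (chr1:203686083-203686110, L1M2) with 1780.3 and rat_piRNA_163546 (chr1:136166344-136166373, the old SINE MIR) with 1659.3. Of these, rat_piRNA_157311 lies on a minus strand copy.

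Few members lay in genes. Annotated exons overlapped 64 members, 5 of them with reads and a summed mean count of 98.4. The gene ENSRNOG00000026676 at chr5:157742356-157744668 overlapped 32 of the 64, none of which had a count in any library. All 32 share bases with another listed piRNA, so that a count of 0 does not show a lack of reads there. Plus strand reads were not counted at any exon member, and this gene lies on the plus strand. A further 479 members lay inside a gene's span but in no exon, with a summed mean count of 15444, and 8877 lay outside gene spans with 116330.

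Libraries differed strongly from one another at a few members. Each rat gave 1 library, so differences between rats and between library preparations cannot be told apart. Over the 525 members whose mean count reached 30, the CV of the 8 libraries had a median of 13.9% and quartiles of 10.2% and 17.8%, and 4 members exceeded 40%. The largest was that of rat_piRNA_147725 (chr8:57394809-57394833), which covers 16 bases of a plus strand copy of AmnSINE1, an old SINE. It had 335 counts in HFD replicate 1 and between 18 and 25 in each of the other 7 libraries. It was followed by rat_piRNA_84752 (chr12:14874977-14875005, minus strand MER74A), with counts of 203, 1255, 889 and 2167 on the HFD and 1440, 1639, 229 and 1549 on the CD. The lowest libraries were HFD replicate 1 and CD replicate 3, at 217 and 216 CPM. HFD replicate 3, at 716 CPM, lay between these and the others, which had 1400 to 1809 CPM. The other 2 above 40% were rat_piRNA_177267 on Lx9 and rat_piRNA_147644 on the LTR MLT2B3, with mean counts of 30.8 and 40.1.

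Another, rat_piRNA_168159 (chr1:136163660-136163684, plus strand Lx9), was counted in some libraries and not, or hardly, in others. Its counts were 49, 0, 0 and 62 on the HFD and 45, 0, 1 and 0 on the CD. It was the 1 member of the 730 with at least 20 counts in some library that had 0 or 1 count in another, against 37 of 4532 over all listed piRNAs. The piRNA that shares bases with it, rat_piRNA_83551, had between 19 and 40 counts in every library. Reads that touch both entries were left unassigned, so the counts of 0 do not show a lack of reads. These members were singled out after their values were seen.

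**Figure D4:**
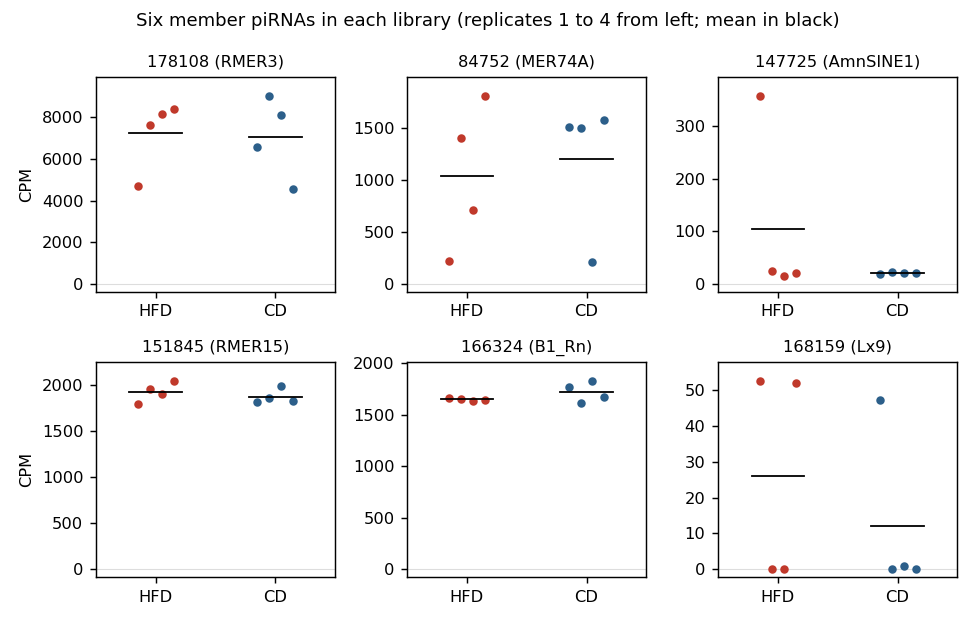
CPM (linear axis) of 6 member piRNAs in each library, replicates 1 to 4 from left to right within HFD (red) and CD (blue), with the diet mean in black. rat_piRNA_147725 is high in HFD replicate 1, rat_piRNA_84752 is low in HFD replicate 1 and CD replicate 3, and rat_piRNA_168159 is near 0 in 5 libraries, while rat_piRNA_151845 and rat_piRNA_166324 are steady.

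No member piRNA passed the test of the diets. The quasi-likelihood test of edgeR, with TMM normalization and Benjamini-Hochberg adjustment at 0.05, was run over the 7818 listed piRNAs whose mean count reached 1. It called 0 of the 1247 members tested, against a background of 0% (0 of 7818). The smallest adjusted p among members was 0.996. At an unadjusted p under 0.05, 21 members (1.68%) were higher on the HFD, with a background of 1.62%, and 14 (1.123%) were lower, with a background of 1.39%. DESeq2 also called 0 members, with a background of 0%. At an unadjusted p under 0.05 it had 10 members (0.802%) with shrunken fold changes, with a background of 0.959%, and 12 (0.962%) without shrinkage, with a background of 1.07%. In a mixture of cells, fewer cells of a type and less RNA per cell cannot be told apart.

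As a group the members lay close to 0. The median log2 fold change (HFD over CD) was -0.01 over the 1247 members and -0.0018 over all 7818 piRNAs. Above 0 were 604 of the 1247 members and 3885 of the 7818 piRNAs. Every HFD library exceeded every CD library at 23 members (1.84%), with a background of 1.47%, and every HFD library lay below at 10 (0.802%), with a background of 0.972%. Members held 12.3%, 12.8%, 12.6% and 12.9% of the piRNA counts in the HFD libraries and 12.4%, 12.6%, 12.7% and 12.6% in the CD libraries, by replicate number. The means were 12.6% ± 0.244 (SD, n = 4) on the HFD and 12.6% ± 0.116 (SD, n = 4) on the CD, and the ranges overlapped.

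The test was precise for abundant members. For the 270 members whose mean count reached 100, fold changes on the log2 scale ran from -0.31 to 0.27, and the 95% interval extended a median of 0.26 to either side. The interval lay within a 2-fold change in either direction for 269 of the 270, and for 793 of all 1247 tested. For rat_piRNA_178108 the log2 fold change was 0.03, with an interval from -0.35 to 0.42, and for rat_piRNA_166324 it was -0.06 (-0.23 to 0.11). For rat_piRNA_84752, which varied most among the abundant members, it was -0.21 (-1.29 to 0.87).

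**Figure D5:**
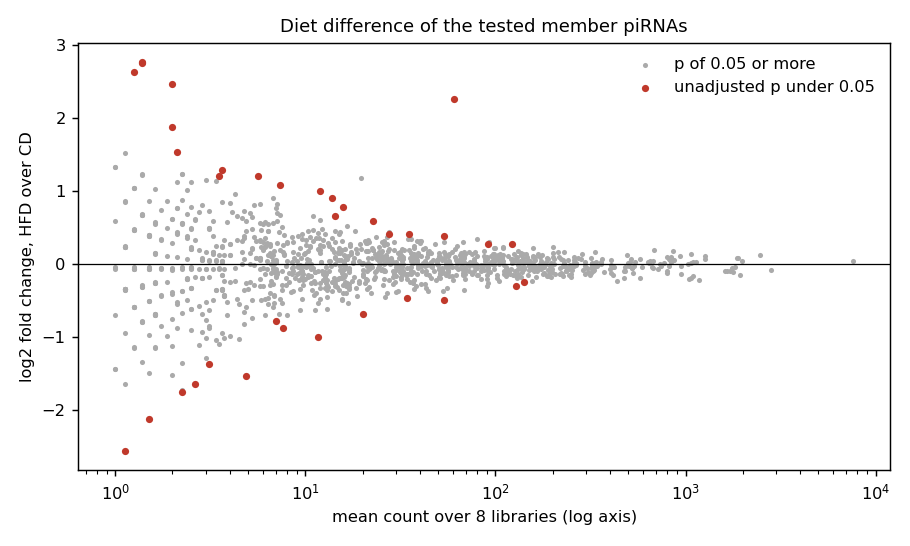
Log2 fold change, HFD over CD, of the 1247 tested members (vertical axis) against their mean count over 8 libraries (logarithmic axis). Red points have an unadjusted p under 0.05; no member passed after adjustment, and the members whose mean count reached 100 lie between -0.31 and 0.27.

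The members with the smallest p-values had low counts. Among those higher on the HFD, rat_piRNA_73687 (chr6:131613058-131613084, on the LINE-2 copy L2) had 17, 14, 14 and 20 counts on the HFD and 5, 9, 9 and 8 on the CD. Its log2 fold change was 1.004 ± 0.298 (SE, edgeR adjusted p = 0.996), and the diets did not overlap. The other 2 were rat_piRNA_76551 on MTC, with a mean count of 2, and rat_piRNA_154323 on ID_B1, with 1.38. Both had no read in some CD libraries.

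Among those lower on the HFD, rat_piRNA_168337 (chr2:63923296-63923324), 9 bases of which lie on a minus strand RSINE1 copy, had 16, 16, 18 and 13 counts on the HFD and 20, 32, 24 and 22 on the CD. Its log2 fold change was -0.68 ± 0.234 (SE, edgeR adjusted p = 0.996). The other 2, rat_piRNA_147857 on L2c and rat_piRNA_180044 on L1_Rod, had log2 fold changes of -1.54 and -0.9999 with the same adjusted p.

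Summed by repeat name, no name passed either. In a table of 6810 rows, in which the members on each repeat name were added up and all other piRNAs were kept, edgeR called 0 of the 239 repeat names tested, with a background of 0%. At an unadjusted p under 0.05, 3 names (1.26%) were higher on the HFD, with a background of 1.81%, and 3 (1.26%) were lower, with a background of 1.32%. DESeq2 called 0, with 1 name (0.418%) at an unadjusted p under 0.05, where the background was 0.925% with shrunken fold changes and 1.04% without shrinkage. Log2 fold changes of the 12 leading names lay between -0.04 for Charlie1 and 0.13 for MER20.

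The 3 names higher on the HFD were AmnSINE1, MLT1L and L1VL4a. MLT1L, a MaLR element, had 135, 145, 143 and 138 CPM on the HFD and 113.1, 124, 122 and 116.5 on the CD, a log2 fold change of 0.24 ± 0.105 (SE, edgeR adjusted p = 0.995). All HFD values of MLT1L lay above all CD values. AmnSINE1 rests on the single piRNA rat_piRNA_147725, and its log2 fold change went from 2.27 to -0.10 without HFD replicate 1. L1VL4a had a mean count of 2.12.

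The 3 names lower on the HFD were the LINE-1 names Lx4A and Lx and the LTR RMER6D. Lx4A had 40.3, 49.1, 31.4 and 52.3 CPM on the HFD and 56.0, 74.0, 50.5 and 58.3 on the CD, and the diets overlapped. Its log2 fold change was -0.47 ± 0.187 (SE, edgeR adjusted p = 0.995). Lx and RMER6D had mean counts of 7.38 and 4.12.

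The counts over whole repeat classes gave no member repeat either. Of the 755 classes tested, edgeR called 1 (0.132%), the DNA transposon FordPrefect, which was not among the 268 classes that hold a member with reads. That call was lost (0 classes) with shrunken DESeq2, at a mean count of 10 or more, and without HFD replicate 1 or 2 or any 1 CD replicate. Of these 268, 4 (1.49%) were higher on the HFD at an unadjusted p under 0.05, with a background of 2.12%, and 2 (0.746%) were lower, with a background of 1.46%. DESeq2 called 0 of the 268, with 7 (2.61%) at an unadjusted p under 0.05 in both of its fits, above a background of 1.59%, while the shares from edgeR lay below theirs. The class of Lx4A had a log2 fold change of 0.02 (95% interval -0.10 to 0.15), against -0.47 for the members on it, and the class of MLT1L 0.03 (-0.08 to 0.14), against 0.24. The classes of Lx and RMER6D were at -0.02 (-0.24 to 0.19) and 0.03 (-0.10 to 0.16). On L1VL4a class and members lay on the same side, at 0.12 (0.0057 to 0.24) and 1.55, as they did on AmnSINE1, at 1.21 (-0.08 to 2.49) and 2.27. None of the 6 classes passed after adjustment (edgeR adjusted p = 0.992).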

How the data were processed

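Every value rests on read counts that the authors deposited, raw and 1 per feature and library. According to the study's methods and the file headers, small RNA reads of at least 25 bases were aligned to rn5 with Butter, and reads with a mapping quality of at least 1 were counted over piRNAQuest piRNAs (opposite strand only) and repBase repeat classes (both strands) by featureCounts 1.4.6. mRNA reads were aligned with STAR 2.3.0 and counted on Ensembl genes. For CD replicate 4 the column name and the file name carry different library numbers; the file's own sample record decided. Columns of miRNA counts were not used.

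Members were found with bedtools 2.31.1, and each was given the repeat with the longest overlap, since 232 overlap more than 1 repeat name. Families were assigned by the start of the repeat name, and the grouping was corrected after the names were seen. The members and lists were chosen with earlier results of these data known. Named were the 12 repeats and 12 members with the highest mean count, any with an adjusted p under 0.05, and the 3 with the smallest p in each direction. Loci and the 20 kb joining distance were chosen after the values were seen.

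Tests used edgeR 4.0.16 in R 4.3.3 (TMM, quasi-likelihood, mean count of at least 1, Benjamini-Hochberg at 0.05), and were fitted on the whole table. Alternatives were DESeq2 1.42.0, other size factors, filters and overlaps, a replicate block and each library left out. CPM are TMM-scaled counts per 1000000 piRNA counts. A standard error is the log2 fold change divided by the square root of F. Over members, chi-square divided by its degrees of freedom was at least 1.81 for every pair of libraries, so none was treated as a duplicate. Depth was 891575 to 1240080 piRNA counts, where a count of 100 has a counting error of 10%. The labels name separate replicates but not separate litters, so p-values measure the spread between these libraries, 1 from each rat. The planned tests on piRNA pathway genes and cell type markers were not run, since no gene identifier was paired with a symbol.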

Additional observations from a re-analysis of the deposited data

Results flagged for a closer look

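Values that stood far from the other 3 libraries of their diet were looked for in 86 groups of 4 libraries, and 13 were found. Chance alone gives about 1 in 20 in independent groups. Some of these groups share reads, and some members were named for their large spread. The 13 are therefore a description and are not compared with that share. rat_piRNA_147725 had 357.9 CPM in HFD replicate 1 against 14.5 to 24.6 in the other HFD libraries, and member counts on AmnSINE1, which that piRNA makes up, had 355.4 CPM there. On AmnSINE1 in the CD libraries, replicate 1 was at 18.67 CPM against 21.5 to 21.9. rat_piRNA_84752 had 215.5 CPM in CD replicate 3 against 1502 to 1581, and rat_piRNA_168159 had 47.2 CPM in CD replicate 1 against 0 to 0.941.

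Further values were these. rat_piRNA_72436 had 1996 CPM in HFD replicate 2 against 1778 to 1800, and member counts on MurERV4_19-int, where it lies, had 4974 CPM in CD replicate 1 against 4248 to 4358. Member counts on ID_B1 had 2410 CPM in HFD replicate 1 against 2261 to 2280. rat_piRNA_73687 had 5.244 CPM in CD replicate 1 against 8.16 to 8.47, and rat_piRNA_177267, on an Lx9 copy of chr2, had 13.89 CPM in HFD replicate 1 against 27.9 to 30.04. rat_piRNA_154323 had 0.9412 CPM in CD replicate 3 and 0 in the others, L1VL4a had 5.304 CPM in HFD replicate 1 against 2.23 to 2.57, and RMER6D had 1.869 CPM in CD replicate 3 against 6.40 to 7.26. The cause of these differences was not tested.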

How the results depend on the processing

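The count of 0 members called held under both DESeq2 fits, DESeq2 size factors, a mean count of 10 or more, the repeat library size, at least 50% of the piRNA inside the repeat, the replicate block and each left-out library. When any count in any library sufficed, 2 of the 1693 members with a read were called, rat_piRNA_147725 and rat_piRNA_168159. Over all listed piRNAs with a read, 28 of 10622 were called, a larger share. With members summed by repeat name, only AmnSINE1 was called among the 268 names that hold a member with reads. The cause was not tested. With the replicate block, 8 of the 7818 piRNAs tested were called, with 0 of the 1247 members and 0 of the 239 repeat names. Deviations of same-numbered libraries of the diets had correlations of between -0.05 and 0.17, and 4 of the 8 libraries correlated best with their own number. The mean correlation was 0.049 for same-numbered pairs and -0.016 for other pairs. The labels give a number only, and whether same-numbered samples share a batch was not tested. Over single left-out libraries, piRNA calls ranged from 0 to 1 and repeat class calls from 0 to 1: 1 piRNA was called without CD replicate 3, and the 1 class was lost without HFD replicate 1 or 2 or any CD replicate. Class calls were 0 with shrunken DESeq2 and at a mean count of 10 or more.

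The share of piRNA counts on members, 12.6%, was 11.9% with at least 50% overlap, 10.3% with members that share no base and 11.9% without rat_piRNA_178108. The share of member counts on minus strand copies, 37.0%, was 38.5% with members that share no base and 39.2% without rat_piRNA_178108. The 20 leading loci held 79.9% of counts at a joining distance of 10 kb and 81.4% at 50 kb, settings added after seeing the data.

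Fold changes close to 0 turned sign. On L1M2 (0.00041 on the log2 scale) they were -0.014 and -0.015 with DESeq2 shrunken and not, -0.015 with its size factors, -0.014 at a mean count of 10 or more and -0.0026 with the block. On L2b (0.0038) they were -0.010, -0.011, -0.011 and -0.010 in the first 4 of these settings. Leaving out single libraries gave ranges of -0.13 to 0.19 for rat_piRNA_178108, -0.11 to 0.016 for rat_piRNA_164081, -0.025 to 0.73 for rat_piRNA_147644, -0.093 to 2.65 for rat_piRNA_147725, -0.63 to 0.071 for rat_piRNA_177267 and -0.63 to 0.13 for rat_piRNA_84752. For repeat names they were -0.13 to 0.19 on RMER3, -0.070 to 0.037 on L1M2, -0.052 to 0.0018 on B1_Rn, -0.14 to 0.012 on Charlie1, -0.066 to 0.010 on Lx9, -0.044 to 0.037 on L2b, -0.014 to 0.11 on ORR1F and -0.095 to 2.63 on AmnSINE1. Simple repeats could not be left out because none are annotated, and the tests on pathway genes were not run.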
